A study of Rattus norvegicus with 110 samples.

Results

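The livers described here were the 28 taken from F2 male Sprague Dawley rats given the higher of 2 carbon tetrachloride (CCl4) doses, out of 83 liver libraries of F2 males and 110 libraries in the series. They were chosen by their labels alone: every liver of a male given 50% (v/v) CCl4 in olive oil by gavage, at 0.5 ml/kg and 3 times a week for 39 days, was taken. The males differed in their paternal ancestors. In 14 of them the F0 grandsire had received only olive oil, and in the other 14 it had received 50% CCl4 by gavage over 6 weeks, 3 doses weekly, and was mated with an untreated female after 2 weeks without treatment. Within each set of 14, the F1 sire had received olive oil in 7 and 50% CCl4, on the same schedule, in 7. The 4 groups of 7 are called here neither ancestor treated, F1 treated, F0 treated, and F0 and F1 treated. Sprague Dawley rats are outbred, and CCl4 is converted by hepatocytes to a radical that injures them. All 28 males were themselves injured by it, so no liver here was at rest. The question of the comparison is whether, on that background of injury, liver mRNA differed with the treatment of the grandsire.

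The liver answers repeated CCl4 with hepatocyte death and regrowth, inflammation, and activation of stellate cells, the vitamin A storing cells that turn into the collagen-producing myofibroblasts of a fibrotic liver. Paternal inheritance of an exposure may pass through sperm, by DNA methylation, histone marks or small RNAs, but also through seminal fluid, microbes or the mother's response to her mate. None of these routes was measured in the livers, which gave polyadenylated RNA only. In such bulk tissue, fewer cells of a type and less RNA per cell cannot be told apart.

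The 28 libraries held 31638559 to 50930971 estimated counts, 33153448 to 50930971 in males of control grandsires and 31638559 to 47209919 in males of treated ones. One library, F0 and F1 treated replicate 7, stood apart, with the largest normalisation factor (1.507, against 0.7811 for the smallest) and the lowest mean correlation with the other 27 libraries (0.942). Each set of 14 males descended from 8 F0 sires, so males of one set shared grandsires, and treatment of a grandsire cannot be told apart from other differences between those 8 and 8 founders. The animal numbers, shared by all 4 groups, marked 4 planned necropsy dates with equal numbers of both F0 sets on each. Gene symbols were available for 1472 of the 12825 genes with a mean normalised count above 50. These symbols came from the list of genes that the study chose for their F0 difference in all F2 livers, the present 28 included, so a direction among named genes is not independent evidence. Of 18 hepatocyte markers only Tat, a tyrosine-degrading enzyme, had a symbol. It was abundant, with a mean normalised count of 41190. No defining marker of blood or of neighbouring organs could be looked up, and the labelled tissue was not checked further.

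The lower transcripts in males of treated grandsires were led by Zbtb16, the zinc finger repressor PLZF that glucocorticoids induce in many tissues. Its normalised count (the count scaled to a common library size) ran from 72.98 over a median of 718.7 to 1824 in the 14 males of control grandsires, and from 36.38 over 113.3 to 549.7 in the 14 males of treated ones. All 14 of the latter lay below the control median, and 4 lay below every control male, but the sets overlapped. The fitted log2 difference was −2.32 (SE 0.49), which is 4.99-fold lower. In edgeR's quasi-likelihood fit with F1 treatment as the covariate, this gave an adjusted p of 0.13, above the threshold of 0.1. No gene of the 19004 tested passed (0%), where passing means an adjusted p below 0.1 and a mean normalised count above 50. At an unadjusted p below 0.05 there were 1101 genes, 603 higher and 498 lower, or 5.79% of those tested (3.17% and 2.62%), close to the share that the threshold alone allows. Without F0 and F1 treated replicate 7 that number was 1972 (10.4%), and again no gene passed (smallest adjusted p = 0.109).

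The same comparison with the animal number as a block, which compares males of the same planned necropsy, called 6 genes (0.0316%). Zbtb16 (log2 −2.32, adjusted p = 0.0368), Acer2 (−0.74, 0.0368), Pkdcc (−0.70, 0.0527), Ablim3 (−0.68, 0.0527) and a gene without a symbol, ENSRNOG00000020990.2 (−1.07, 0.0542), fell in that fit, and Pnisr (0.38, 0.0779) rose. DESeq2's Wald test without the block called 32 genes (0.168%), 18 higher and 14 lower, and these contained all 6. Of the 32, 23 had a symbol, and 2 had counts in fewer than 14 of the 28 males, where a fitted fold is unstable.

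Of these genes 3 are shown by the 250 bases ahead of their annotated transcription start (RefSeq, GRCr8, read 5′ to 3′ on the gene's strand), because Acer2 and Pkdcc were among the lower genes and Pnisr was the higher one. Capitals mark the GC box GGGCGG on either strand, the element bound by Sp-family factors. The windows are chr5:106437598-106437847 (plus strand) for Acer2, chr6:17217489-17217738 (minus strand) for Pkdcc and chr5:40192485-40192734 (plus strand) for Pnisr.
Acer2: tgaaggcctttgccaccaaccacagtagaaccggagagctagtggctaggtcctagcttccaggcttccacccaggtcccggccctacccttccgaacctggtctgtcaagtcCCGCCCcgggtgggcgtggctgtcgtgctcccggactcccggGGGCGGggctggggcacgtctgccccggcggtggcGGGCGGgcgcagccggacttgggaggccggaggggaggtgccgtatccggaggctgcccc
Pkdcc: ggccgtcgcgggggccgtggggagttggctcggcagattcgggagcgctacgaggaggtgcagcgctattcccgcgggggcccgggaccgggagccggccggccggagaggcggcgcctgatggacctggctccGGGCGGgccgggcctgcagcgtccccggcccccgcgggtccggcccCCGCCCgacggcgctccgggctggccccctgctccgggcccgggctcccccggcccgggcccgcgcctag
Pnisr: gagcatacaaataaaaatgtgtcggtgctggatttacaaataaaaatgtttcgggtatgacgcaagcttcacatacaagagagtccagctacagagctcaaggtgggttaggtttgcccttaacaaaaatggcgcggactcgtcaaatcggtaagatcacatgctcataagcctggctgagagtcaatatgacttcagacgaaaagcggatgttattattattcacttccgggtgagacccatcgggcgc
The Acer2 window held 3 GC boxes, the Pkdcc window 2 and the Pnisr window 0, and their GC contents were 71.2%, 82.8% and 44.8%. Among the 20 genes described next, 19 had an entry. A GC box stood in 16 of the 19, 7 of 9 lower and 9 of 10 higher ones, against 30.5% of all 33469 windows of the same length, which include those of genes the liver does not express. The CCAAT box CCAAT was in 6 of 19 and in 34% of all, the TATA box TATAAA in 0 of 19 and 12.9%, and the E-box CACGTG in 1 of 19 and 5.59%. A relaxed form of the glucocorticoid response element with free spacer bases was in 0 of 19 and in 0.373% of all. The cyclic AMP response element TGACGTCA, the REV-ERB element and the sterol response element TCACNCCAC were each in 0 of 19, and in 1.59%, 0.206% and 0.974% of all. All motifs were searched on both strands, none contains another, and a match or its absence in this window is a description only.

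The next values are of the 10 lower genes with a symbol and the smallest p, of which Zbtb16 was one. Of these and the 10 higher genes described after them, 20 in all, DESeq2 called 18 (0.168% of all genes), the animal number block 5 (0.0316%) and the date block 5 (0.0263%). The adjusted p given for single genes are edgeR's without a block. Acer2, a ceramidase of the Golgi, had counts from 817.4 over 1322 to 2254 in males of control grandsires and from 600.7 over 759.1 to 1445 in males of treated ones (log2 −0.75, SE 0.15, edgeR adjusted p = 0.13). In it 8 of the 14 treated-line males lay below every control-line male, the most among these 10 genes. Lpin1, a phosphatidate phosphatase of triglyceride synthesis that also coactivates transcription, ran from 963.3 over 2787 to 10240 and from 906.3 over 1376 to 2928 (log2 −1.38, SE 0.30, adjusted p = 0.137). Its wide range lay mostly in the control line, where the highest males had several times the median. Fkbp5, a co-chaperone that restrains the glucocorticoid receptor, ran from 1790 over 2782 to 4433 and from 1082 over 1809 to 3013 (log2 −0.67, SE 0.14, adjusted p = 0.13).

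Pkdcc, a secreted protein kinase, had counts from 1691 over 4325 to 5557 in the control line and from 1680 over 2208 to 3046 in the treated line (log2 −0.74, SE 0.14, adjusted p = 0.13). Ablim3, an actin-binding LIM protein, ran from 858.7 over 1487 to 1882 and from 475.4 over 942.5 to 1352 (log2 −0.65, SE 0.14, adjusted p = 0.13). For both genes all 14 treated-line males lay below the control median. Sdc4, a heparan sulphate proteoglycan of the cell surface, ran from 4819 over 8110 to 16380 and from 3953 over 5304 to 7472 (log2 −0.66, adjusted p = 0.203). Rapgef5, an exchange factor for Rap proteins, had a log2 difference of −0.54, Jdp2, a repressor of the AP-1 family, −0.67, and Minpp1, an inositol polyphosphate phosphatase, −0.42, with adjusted p of 0.23, 0.317 and 0.317 in edgeR. In 7 of these 10 lower genes all 14 treated-line males were below the control median, and in all 10 at least 13 were. Of all 12825 genes above a mean count of 50, 22 (0.172%) had all 14 below that median and 147 (1.15%) at least 13. The genes were named by their small p, so these counts describe them and add no support.

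The differences of the 10 higher genes lay between 1.2-fold and 1.484-fold, against 1.338-fold to 4.99-fold for the 10 lower ones. Pnisr, a nuclear protein rich in serine and arginine, had counts from 864.2 over 941.2 to 1528 in males of control grandsires and from 1078 over 1325 to 1571 in males of treated ones (log2 0.37, SE 0.08, adjusted p = 0.13). All 14 treated-line males exceeded the control median. Akap8l, a nuclear relative of the A-kinase anchoring proteins, ran from 543.9 over 679.6 to 880.9 and from 578.2 over 987.5 to 1445 (log2 0.55, SE 0.12, adjusted p = 0.137), and 10 of 14 treated-line males were above every control-line male. Srsf5, a splicing factor, ran from 2491 over 3216 to 5188 and from 3318 over 4042 to 5037 (log2 0.36, SE 0.09, adjusted p = 0.357), with 1 control-line male above all others. Nxf1, the main export receptor of mRNA, had a log2 difference of 0.26 (adjusted p = 0.23).

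Vegfa, the growth factor of endothelium, ran from 2635 over 3609 to 4335 in the control line and from 3406 over 4497 to 6668 in the treated line (log2 0.40, SE 0.10, adjusted p = 0.317), and 9 of 14 treated-line males exceeded every control-line male. Sik1, a salt-inducible kinase, had a log2 difference of 0.37, the zinc finger gene Zfp386 0.33, Dgkq, a diacylglycerol kinase, 0.35, Epm2aip1, named for its binding to laforin, 0.29, and Eml5, of the family of microtubule-associated EML proteins, 0.57. Their adjusted p ran from 0.334 for Zfp386 to 0.457 for Dgkq. In 3 of the 10 higher genes all 14 treated-line males exceeded the control median, and in all 10 at least 12 did, against 11 genes (0.0858%) and 391 genes (3.05%) of 12825. No gene of the 12825 had all 14 treated-line males on one side of all 14 control-line males (0%).

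**Figure D1:**
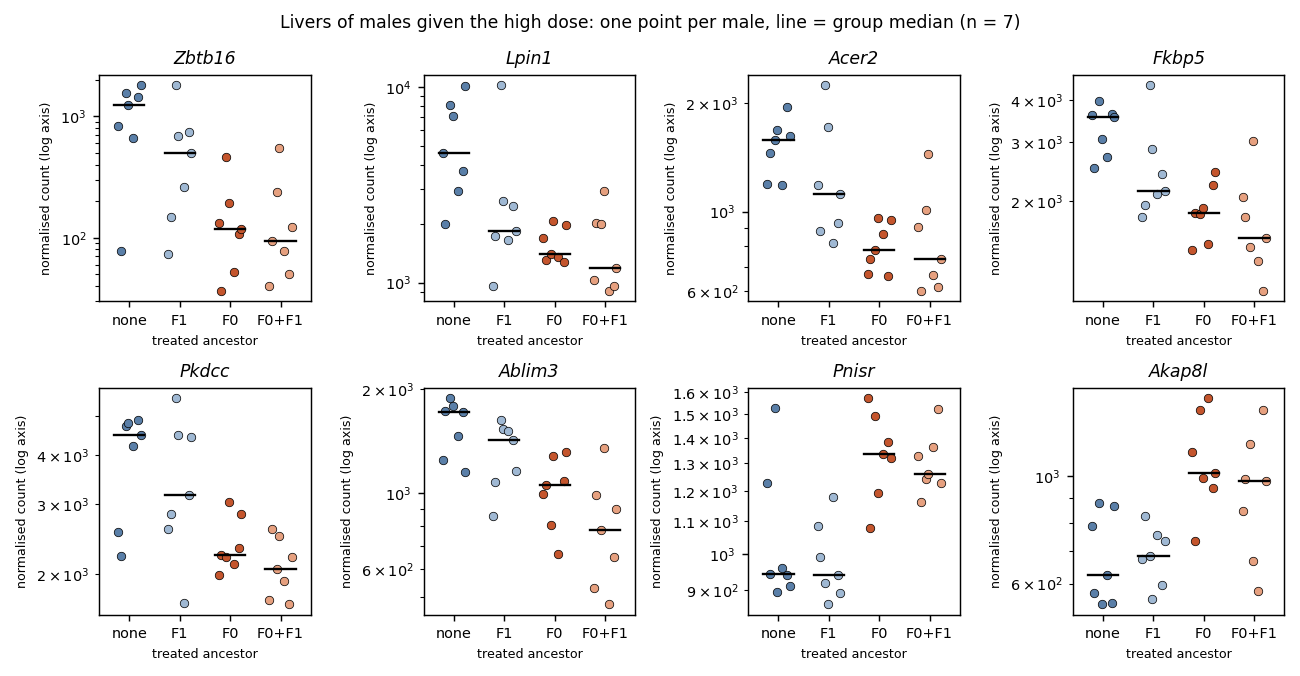
Normalised counts (log axis) of 8 genes in single males, by which ancestor was treated, 7 males per group, with the line at the group median. For Zbtb16 the medians were 1255 with neither ancestor treated, 502.3 with F1, 119 with F0 and 94.02 with both treated, while Pnisr and Akap8l were higher in both groups with a treated F0 grandsire.

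Since males of a set shared grandsires, the genes were also described over the means of the 8 and 8 F0 sires. For all 20 named genes the 8 treated sires lay on one side of the control median, as they did for 5.39% of the 12825 genes. The 20 were chosen by their p in these same males, which favours this. The sire means did not overlap at all for 2 genes of 12825 (0.0156%): Srsf5, at 2725 to 3625 for control sires and 3684 to 4999 for treated ones, and Csnk1d, a circadian casein kinase, which was lower. In Acer2, 6 of the 8 treated sires lay below every control sire, in Ablim3 7 did, and in Zbtb16 3 did. A fit of counts summed per sire called no gene (smallest adjusted p = 0.427), with 861 genes at an unadjusted p below 0.05, and a limma-voom fit with the sire as a correlated block called none either (0.171; 960 genes).

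Levels on the 4 necropsy dates are given for 3 of these genes. Mean log2 Zbtb16 in the control line was 7.35 on the first necropsy date, 10.29 on the second, 8.703 on the third and 9.96 on the fourth. In the treated line it was 6.04, 8.36, 6.005 and 6.57. Both lines had their 2 lowest means on the first and the third date, and the F0 difference was −1.31, −1.93, −2.70 and −3.39 in date order. Lpin1 likewise had its highest mean on the second date in both lines, 12.61 and 10.98, and differences from −0.44 on the first date to −1.63 on the second. Acer2 differed by −0.38 to −0.89 over the dates. All 20 named genes had the same sign on all 4 dates, with 4 males per line on a date and 2 on the third, against 11.4% of the 12825 genes, and here too the choice by p favours one sign.

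The next question was whether the F0 difference was seen with and without treatment of the F1 sire. Where the F1 sire had received only olive oil (F0 treated against neither ancestor treated, 7 against 7), Tnrc18, which encodes a large nuclear protein with trinucleotide repeats in its gene, rose: 866 over a median of 1060 to 1387 with neither ancestor treated, and 1329 over 1713 to 2022 with F0 treated (log2 0.67, SE 0.12, edgeR adjusted p = 0.0576). It was the only gene called (0.00526%), and with transcript length offsets none was (smallest adjusted p = 0.38), nor without F0 and F1 treated replicate 7, the library that stood apart (0.136). Where the F1 sire had been treated, Tnrc18 stood at a median of 1524 in F1 treated males and 1519 in F0 and F1 treated males (log2 −0.06), and no gene was called (0%; 801 at an unadjusted p below 0.05). Without that library there were 2034 such genes (10.7%), and 1 gene without a symbol was called. The interaction, which tests the difference between both F0 differences, called no gene (0%; 811 or 4.27% at an unadjusted p below 0.05, and 0 called by DESeq2). Without that library the interaction had 1347 such genes (7.09%) and again called none. With all libraries the interaction for Tnrc18 was −0.74 (SE 0.16, adjusted p = 1), so a loss of the difference after F1 treatment was not shown.

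Counts of genes whose 7 and 7 males did not overlap were 39 (0.304% of 12825) without and 3 (0.0234%) with F1 treatment. Without F1 treatment they included Acer2 (659.1 to 961.8 with F0 treated, 1187 to 1950 with neither) and Fkbp5 (1431 to 2436 against 2512 to 3966), and Srfbp1, Utp4, Ppan and Wdr43, which take part in ribosome assembly. DESeq2 called 43 genes without F1 treatment, 19 higher and 24 lower, and 3 with it. With the animal number block 5 genes were called without F1 treatment: Slc25a32, a mitochondrial folate carrier, Acer2, Insc, an adaptor of spindle orientation, and Zbtb16 fell (log2 −0.86, −0.93, −0.96 and −2.94), Tnrc18 rose (0.68), and none was called with F1 treatment.

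The study singled out Zbtb16, Lpin1, Acer2 and Slc10a2 as examples. Zbtb16 differed by −2.78 (SE 0.70) without F1 treatment and −1.85 (SE 0.68) with it, Lpin1 by −1.80 (SE 0.42) and −0.97 (SE 0.41), and Acer2 by −0.93 (SE 0.21) and −0.58 (SE 0.21). In each the estimate was farther from 0 without F1 treatment, and in none did the interaction pass (adjusted p = 1 for each in edgeR). By medians, Zbtb16 was at 1255 with neither ancestor treated and 502.3 in F1 treated males, and at 119 with F0 and 94.02 with both ancestors treated, so the control line was lower in the F1 treated group. Lpin1 medians were likewise 4607, 1834, 1398 and 1193. The F1 effect on its own called no gene (1249 at an unadjusted p below 0.05), and for Zbtb16 it was −0.40 (SE 0.47). Slc10a2, the apical bile acid transporter that cholangiocytes use, was 81.15 over 107 to 168.1 with neither ancestor treated and 130.7 over 171.7 to 214 with F0 treated (log2 0.61, SE 0.24, adjusted p = 0.726). With F1 treatment its log2 difference was −0.04 (SE 0.24), and over all 28 males it was 0.29 (SE 0.18, adjusted p = 0.884). By date it was −0.05, 1.06, −0.40 and 0.30, and over the alternative settings it ran from 0.01 to 0.46 (0.11 to 0.46 when the males of 1 animal number were left out).

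Groups of genes were described by their members with a symbol, beside the median of all 12825 genes above a mean count of 50, which was −0.01. Of ribosome biogenesis, the set of factors that process ribosomal RNA and assemble the subunits, 48 of 55 listed genes had a symbol. All 48 had a log2 difference below 0, with a median of −0.21 (−0.20 with DESeq2's size factors), 15 had an unadjusted p below 0.05, and none was called. Such a p was reached by 27.4% of the 1472 genes with a symbol, from which the members come, and by 2.77% of the genes without one. By date, 46, 45, 18 and 47 of the 48 lay below 0, with medians of −0.21, −0.35, 0.04 and −0.33. The third date, where most lay above 0, had 2 males per line and held F0 and F1 treated replicate 7, the library that stood apart. Without that library all 48 were below 0, with a median of −0.23 and 27 at such a p (10.4% of all genes tested had one in that fit). Nol8 had the largest difference (−0.47, SE 0.20, adjusted p = 0.795), followed by Nop58 (−0.34, SE 0.21, adjusted p = 0.884) and Tsr1 (−0.33, SE 0.15, adjusted p = 0.815). In the males whose F1 sire was untreated the median was −0.37 and 34 of 48 had an unadjusted p below 0.05 (31.4% of the genes with a symbol and 3.4% of those without one had), whereas with F1 treatment the median was −0.04, 35 of 48 were below 0 and 0 of 48 had such a p (7.88% and 2.62% had). The library that stood apart belongs to the latter arm, and without it the median there was −0.12, with 40 of 48 below 0 and 2 at such a p (14.4% of the genes with a symbol). Srfbp1, a factor of this set, shows it by levels: 469.9 to 566.5 with neither ancestor treated, 319.9 to 398.4 with F0 treated, 378.4 to 553.3 in F1 treated and 285.9 to 600 in F0 and F1 treated males. An unadjusted interaction p below 0.05 was reached by 7 of 48, against 4.27% of all genes tested. The difference between both arms was not established, since the smallest adjusted interaction p was 1. A member could be looked up only where the study had picked it for an F0 difference in these samples, so the shared direction is not independent evidence.

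Of the genes that glucocorticoids induce, 8 of 16 had a symbol, all 8 had a log2 difference below 0, and their median was −0.66. An unadjusted p below 0.05 was reached by 5, against 27.4% of all genes with a symbol. None was called by edgeR, while the animal number block called Zbtb16, the date block Zbtb16 and Fkbp5, and DESeq2 both of these. Beside Zbtb16 and Fkbp5 stood Per1, a clock gene with a glucocorticoid-responsive promoter (log2 −0.98, SE 0.32, adjusted p = 0.589), Cdkn1a, the cell cycle inhibitor p21 (−0.65, SE 0.20, 0.526), Klf9 (−0.45, SE 0.21, 0.845), Tsc22d3, which encodes GILZ (−0.50, SE 0.29, 0.876), Lcn2, a lipocalin that also rises with inflammation (−1.05, SE 0.58, 0.874), and Tat (−0.27, SE 0.23, 0.909). In Per1 all 14 treated-line males lay below the control median of 619.9, with values from 188 over 273.5 to 606. By date, however, Per1 differed by 0.06, −1.70, 0.34 and −1.24. On the first date 4 of the 8 genes lay above 0 (Per1, Tat, Tsc22d3 and Klf9), on the second none, on the third Per1 and on the fourth Lcn2 (1.45). The medians on the 4 dates were −0.09, −0.82, −0.82 and −0.75. The median was −0.79 without F1 treatment, where all 8 were below 0, and −0.46 with it, where 7 were.

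The clock genes lay on both sides of 0. Of the day-arm genes, 5 of 9 had a symbol. Nr1d1, which encodes the repressor REV-ERB alpha, had a log2 difference of 0.89 (SE 0.40, adjusted p = 0.815) and Per1 −0.98, while Nr1d2, Dbp and Per3 were at 0.37, 0.32 and 0.11. Of the night arm, Cry1 was at −0.43 (SE 0.19, 0.813) and Arntl, the partner of CLOCK, at −0.12 (SE 0.14, 0.938). None was called by edgeR, while DESeq2 with the animal number block called Nr1d1 (log2 1.23, adjusted p = 0.0796).

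Of the writers and erasers of DNA methylation 4 of 8 listed genes had a symbol, all above 0 with a median of 0.24. They were Hells, a chromatin remodeller needed for methylation (0.51, SE 0.20, adjusted p = 0.756), the dioxygenases Tet3 (0.27, SE 0.09, 0.611) and Tet2 (0.21, SE 0.10, 0.849), and the methyltransferase Dnmt3b (0.20, SE 0.13, 0.886). Tet3 counts ran from 370 over 457.1 to 538.7 in the control line and from 403.1 over 503.9 to 739.3 in the treated line. By date, 3, 4, 4 and 2 of these 4 genes lay above 0, with medians of 0.17, 0.30, 0.53 and 0.02. An unadjusted p below 0.05 was reached by 3, against 27.4% of all genes with a symbol. The study had picked those genes for an F0 difference, so the shared direction is not independent evidence. Histone demethylases, 9 of 24 with a symbol, had a median of −0.01 and a range from −0.39 to 0.17. Riox1, a nucleolar hydroxylase, was at the lower end (SE 0.12, edgeR adjusted p = 0.499).

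Of the genes tied to stellate cells, Ahr, the dioxin receptor, ran from 1172 over 2129 to 2673 in the control line and from 985.5 over 1565 to 2320 in the treated line (log2 −0.37, SE 0.13, adjusted p = 0.605). Il17ra, the interleukin-17 receptor, was at 0.12 (SE 0.07, adjusted p = 0.884) and Ski, a repressor of SMAD signalling, at 0.12 (SE 0.09, 0.895). Ski differed by 0.35 (SE 0.11) without F1 treatment and −0.11 (SE 0.11) with it. The list of 25 collagens and other fibrosis genes had no member with a symbol, so the markers of myofibroblasts were not analysed here.

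**Figure D2:**
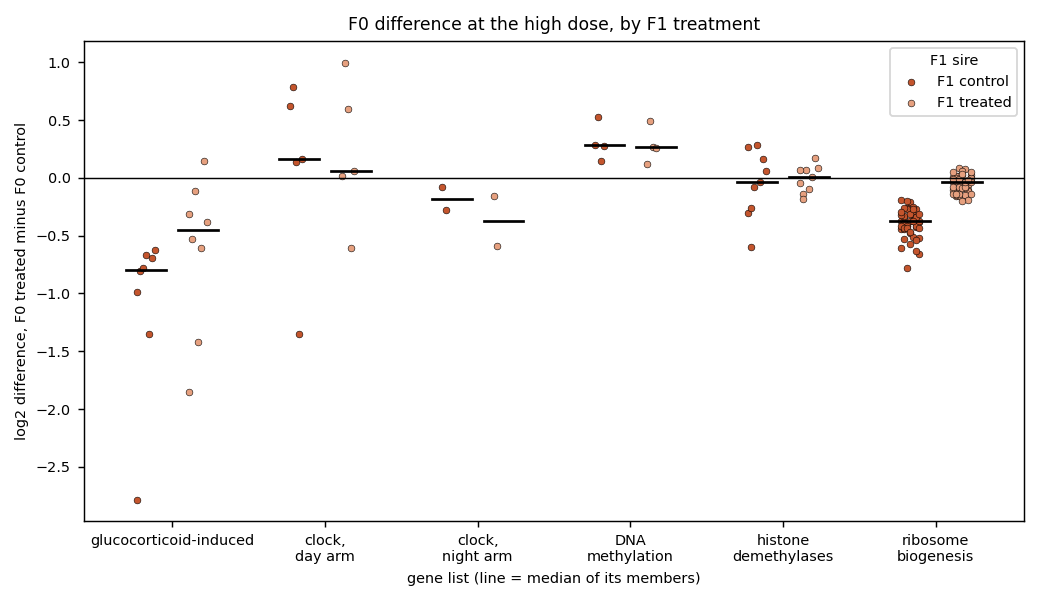
Log2 F0 difference (F0 treated minus F0 control) of the members with a symbol in 6 gene lists. Males of control and of treated F1 sires are shown apart, 1 point per gene with the line at the list's median. The 48 ribosome biogenesis genes centre on −0.37 without and −0.04 with F1 treatment, and the 8 glucocorticoid-induced genes on −0.79 and −0.46.

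Other lists had few members with a symbol. In cholesterol and fatty acid synthesis, Insig1, which holds the sterol sensor in the endoplasmic reticulum, was at −0.66 (SE 0.25, edgeR adjusted p = 0.712) and Srebf1, a transcription factor of lipid synthesis, at 0.32 (SE 0.29, 0.916). Endothelial genes were represented by Kdr, the main receptor for Vegfa, at 0.54 (SE 0.19, adjusted p = 0.646) and Stab1, a scavenger receptor, at 0.39 (SE 0.20, 0.858). Of the macrophage and inflammation list 5 of 28 had a symbol, and 4 of them were below 0. They ran from −0.30 for Adgre1 to 0.70 for the chemokine Ccl2, with none at an unadjusted p below 0.05. Targets of Wnt, Notch and TGF-beta, 7 of 24 with a symbol, had a median of 0.12. It was 0.45 without F1 treatment and −0.11 with it, where 5 of 7 lay below 0. Over all males Notch2 (0.30) and Rnf43 (0.37) were above 0 and Glul, the glutamine synthetase of pericentral hepatocytes, below it (−0.34). Each had an unadjusted p below 0.05, as had 27.4% of all genes with a symbol, and none was called.

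The F0 difference at the high dose was then set beside that of the other F2 males, in one fit over all 83 livers. Zbtb16 differed by −2.32 (SE 0.52) in males given olive oil, −2.63 (SE 0.51) in those given 8% CCl4 and −2.30 (SE 0.50) in those given 50% CCl4, and passed at each of them (adjusted p = 0.0221, 0.00691 and 0.0263 in edgeR). Lpin1 differed by −1.22, −1.09 and −1.36, and passed in vehicle and high-dose males. Acer2 differed by −0.85, −0.76 and −0.73 and passed at all. This fit, which shares its estimate of the spread across doses, called 16 genes at the high dose (0.0842%), 9 higher and 7 lower, against 227 (1.19%) in vehicle and 59 (0.31%) in low-dose males.

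All 20 named genes had the same sign in vehicle and low-dose males as in high-dose males. The symbols by which genes could be named came from the study's list, chosen for an F0 difference in all F2 livers. Vehicle and low-dose males entered that choice, so these equal signs are not independent evidence. Minpp1 and Eml5 were the 2 of the 20 that did not pass in the other 55 males as 1 set. Minpp1 differed by −0.40 (SE 0.09) at the high dose, against −0.13 (SE 0.09) in vehicle and −0.16 (SE 0.09) in low-dose males, and Eml5 by 0.59 (SE 0.18) against 0.10 (SE 0.18) and 0.37 (SE 0.18). The dose interactions called no gene, neither for high against vehicle (0%; 1026 at an unadjusted p below 0.05) nor for high against low (0%; 716), and among the 20 genes the smallest adjusted p of either was 0.875. DESeq2 called 13 and 7 genes (0.0684% and 0.0368%) for these interactions, for which no minimum mean count was set.

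**Figure D3:**
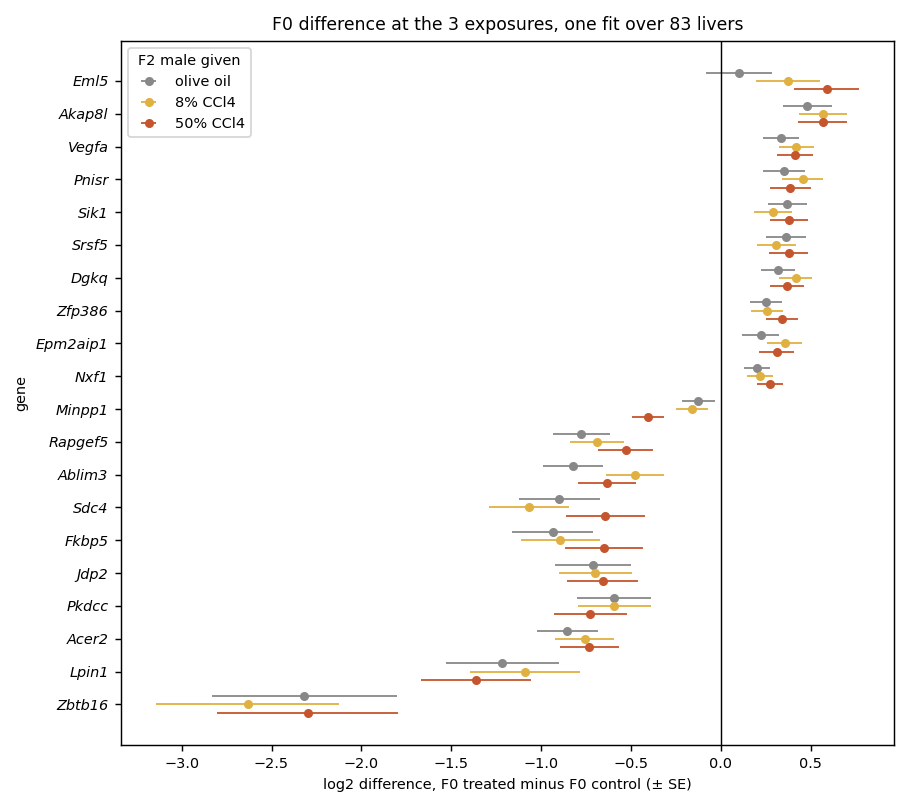
Log2 F0 difference of the 20 named genes, with its SE as a bar, in males given olive oil, 8% CCl4 or 50% CCl4, from one fit over 83 livers. The 3 estimates overlap for most genes, as for Zbtb16 at −2.32, −2.63 and −2.30, while Minpp1 and Eml5 lie farther from 0 at the high dose.

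Some genes had an F0 difference in the other males and a small one at the high dose. Kit, the stem cell factor receptor, differed by −0.67 (SE 0.13) in vehicle, −0.39 (SE 0.13) in low-dose and −0.06 (SE 0.13) in high-dose males, an interaction against vehicle of 0.61 (SE 0.18, adjusted p = 0.502). Rgs12, a regulator of G-protein signalling, went from 0.51 over 0.40 to 0.01 (interaction −0.50, SE 0.17, adjusted p = 0.623). P2ry2, a receptor for extracellular nucleotides, was at 0.44, 0.44 and −0.09 (interaction −0.54, SE 0.17, adjusted p = 0.562). Noct, a circadian NADPH phosphatase, was at −0.78, −1.94 and 0.21, with an interaction against the low dose of 2.15 (SE 0.63, adjusted p = 1). In the other direction Mmp16, a membrane-bound metalloproteinase, was at −0.11, 0.14 and 0.47 (interaction against vehicle 0.58, SE 0.16, adjusted p = 0.485), and Kdr at −0.03, 0.08 and 0.56 (0.58, SE 0.20, adjusted p = 0.633). At the high dose Mmp16 differed by 0.42, 0.17, 1.59 and 0.14 in date order, and the third date held F0 and F1 treated replicate 7. Leaving out the males of 1 animal number gave 0.27 to 0.54. None of these interactions passed.

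Genes were also chosen in the other 55 males and then read at the high dose, so the 28 livers did not enter the choice. All 16 F0 sires of the 28 had sons' sons among the 55 as well, and littermates were spread over the doses. The sets are thus related, and equal signs in them are not independent evidence. In the 55 males 1292 genes (6.8%) passed, 709 higher and 583 lower in the treated line. At the high dose 601 of the 709 (84.8%) were also higher and 504 of the 583 (86.4%) also lower. Of all genes with a mean count above 50 in the 55 males, whether chosen or not, 62.1% of the 6079 above 0 and 65.7% of the 5700 below 0 there had that sign at the high dose. An unadjusted p below 0.05 in the same direction was reached by 131 and 104 (3.17% and 2.62% of all genes tested were higher and lower at such a p), and in the opposite direction by 1 and 0. Their medians were 0.12 at the high dose against 0.28 in the 55 males, and −0.13 against −0.21. The values in the 55 males chose the genes, so the sizes of these medians were not compared. No gene at all was called at the high dose in that fit, so none of the 1292 was. With DESeq2 in both sets of males, 11 of 933 genes chosen as higher and 10 of 730 chosen as lower were called at the high dose (0.168% of all genes were), and with the date block 0 of 740 and 5 of 607 (0.0263% of all genes).

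**Figure D4:**
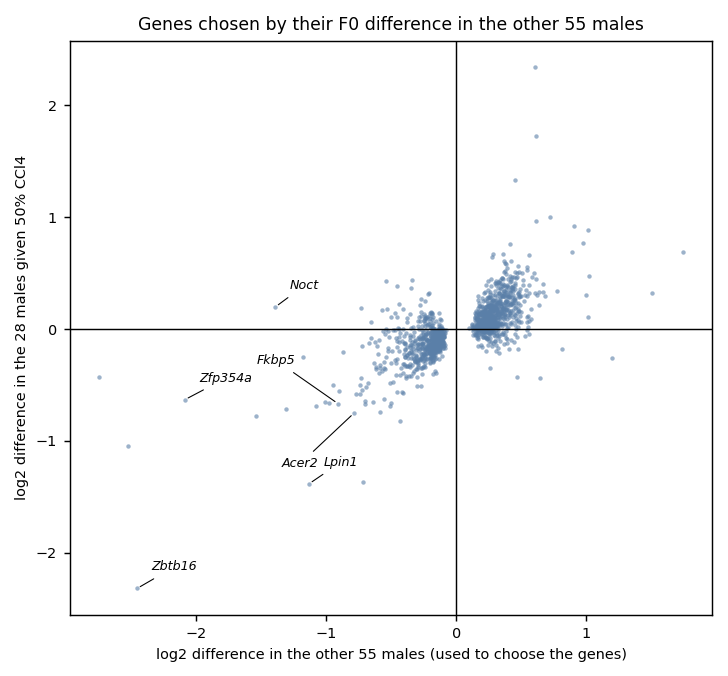
Log2 F0 difference of 1292 genes in the 28 males given 50% CCl4 (vertical) against that in the other 55 males (horizontal, used to choose them), 1 point per gene. Most points lie in the quadrants of equal sign, 84.8% of the higher and 86.4% of the lower genes, and Noct and Zfp354a are labelled among those far from 0 in the 55 males.

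On principal components the livers did not separate by the grandsire's treatment. The first component of the 1000 most variable genes held 33.5% of the variance and the second 18.7%. The difference in mean score between the treated and control lines passed on none of the first 4 components (two-sided permutation test with adjusted p of 0.676, 0.706, 0.73 and 0.386).

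**Figure D5:**
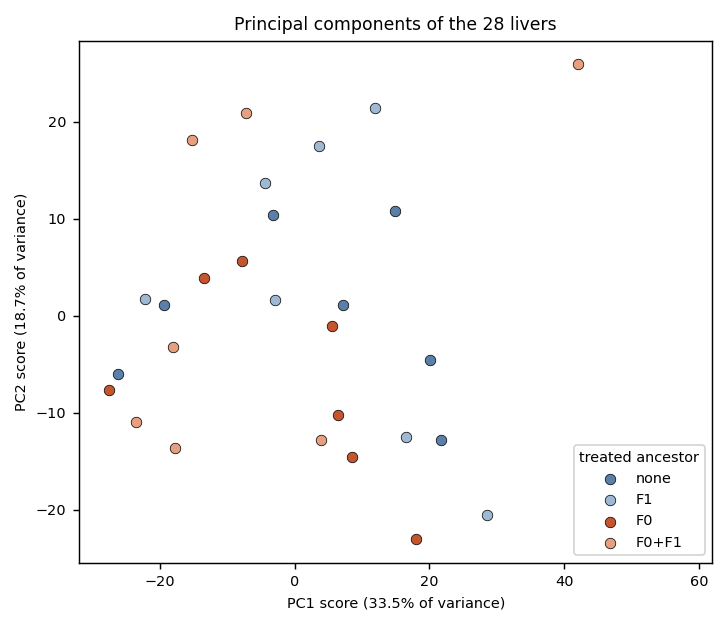
Scores of the 28 livers on the first (33.5% of variance) and second (18.7%) principal component, 1 point per male, coloured by which ancestor was treated. The colours mix over both axes, and the point at the upper right is F0 and F1 treated replicate 7, the library that stood apart.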

How the data were processed

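Polyadenylated liver RNA was made into stranded libraries, sequenced as paired 50-base reads and, per the labels and the study's methods, quantified by the authors with Salmon 0.14.0 against Ensembl transcripts and summed per gene in R 3.5.0. The deposited values are estimated counts, whole numbers per gene and library without normalisation, and the authors deposited average transcript lengths beside them, which entered only as an alternative offset. The strand was known to the counting. Kidney tables were not used. No 2 libraries of a group held identical counts (84 pairs).

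Genes with a summed count above 10 in at least 1 liver group were tested (19004). The main test was edgeR 4.0.16 (TMM normalisation, quasi-likelihood, two-sided, Benjamini-Hochberg adjustment over all genes tested) in R 4.3.3, on the 28 libraries with terms for F0 and F1 treatment, and a gene was called at an adjusted p below 0.1 with a mean normalised count above 50. F0 differences within F1 arms and the interaction came from 4 group means, and those across doses from 12 group means over 83 livers. Interactions were called by the adjusted p alone, without a minimum mean count. Alternatives used DESeq2 1.42.0 and limma 3.58.1. The study's own analysis used DESeq2. The steps were tested on simulated data. P-values measure the spread between animals, several of which shared a grandsire.

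The animal numbers 1, 2, 4, 5, 7, 9 and 10 recur in all 4 groups and, in the study's protocol, mark a shared planned necropsy date. The main test had no term for the number, and a fit with the number as a block is given beside it. In the data, deviations from the group means had a median correlation of −0.0449 over 42 same-number pairs (16 above 0.1) and 0.00508 over 216 pairs of other dates, and 3 of 28 libraries correlated best with their own number.

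Symbols came from gene names that the study's supplement pairs with identifiers, for 1488 genes. The named genes were the members of lists the study names and, with a symbol and a mean above 50, the 10 higher and 10 lower with the smallest p, since edgeR called none, and up to 3 per direction for interactions and F1 arms. Csnk1d, Slc25a32, Insc, Srfbp1, Utp4, Ppan, Wdr43, P2ry2 and Noct, where outside that rule, were chosen after their values were seen. The comparison, lists and tests were chosen with earlier results of these data known. Comparison columns of the authors were not used. Some results are not reported here.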

Additional observations from a re-analysis of the deposited data

Results flagged for a closer look

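In 6 of 100 tests of a named gene in a group of 7 males, 1 male lay so far from the next that the gap, as a share of the group's range, exceeded 0.568. Chance alone gives about 1 in 20 such groups.

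Zbtb16 was at 77.66 in replicate 2 with neither ancestor treated, against 667.4 for the next male (gap 0.681 of the range), and this male lay within the range of the treated line. Srsf5 was at 5188 in replicate 4 of the same group, against 3257 (0.683). Ahr was at 1238 in replicate 7 of that group, against 1935 (0.668). Lpin1 was at 10240 in F1 treated replicate 4, against 2623 (0.576). In F0 treated males, Zfp386 was at 1240 in replicate 4, against 943.4 (0.662), and Eml5 was at 513.9 in replicate 7, against 316.8 (0.603).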

How the results depend on the processing

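The F0 difference at the high dose called 0 genes with transcript length offsets, DESeq2 size factors, either filter on low counts, a threshold of 0.05, no minimum mean, no F1 term, limma-voom, the sire as a block or counts per sire. It called 32 with DESeq2, 6 with the animal number as a replicate block, 5 with the necropsy date as a block (Fkbp5 in place of Pnisr and the gene without a symbol) and 16 in the fit of all 83 livers. Without the second date it called 4, and without each other date 0, with a smallest adjusted p of 0.924 without the fourth. Leaving out each animal number called 0 to 6: 6 without number 5, 2 without number 4, 1 without number 10, and 0 without the others. Added after seeing the data, the block with length offsets called 6, the block in DESeq2 46, and the fit without F0 and F1 treated replicate 7 none. Counts at an unadjusted p below 0.05 ran from 564 without the second date to 1972 without that library.

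Without F1 treatment the 1 call became 43 with DESeq2, 5 with the replicate block, 0 with length offsets, where Tnrc18 was at 0.56, and, added after seeing the data, 0 without F0 and F1 treated replicate 7, where it was at 0.67. With F1 treatment DESeq2 called 3, the fit without that library 1, and the other settings 0. The F0 by F1 interaction called 0 in all of its settings, the replicate block included. DESeq2 called 13 genes for the dose interaction against vehicle and 7 against the low dose, and the date block 0 for each. The share of equal sign among genes chosen in the 55 males was 85.5%, and 83.8% with DESeq2 and 84.6% with the date block. No component passed in any setting.

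The 20 named genes had the same sign in all 27 settings. Zbtb16 ranged from −2.80 to −1.95, Lpin1 from −1.61 to −0.99 and Acer2 from −0.80 to −0.67. The cause of the differences in calls was not tested. Outside the interactions and the setting without a minimum mean, genes with a mean normalised count of 50 or less were not called, whatever their difference.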
